A study of Mus musculus with 4 samples.

Results

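Peaks called for cleavage complexes of topoisomerase IIβ (TOP2B) in gene deserts, far from any annotated gene, are described here. A peak of the deposited list was taken as a desert peak when its summit, the base of highest signal, lay on an autosome and more than 50 kb from the span of every gene of any type in the RefSeq annotation of mouse build GRCm38. The rule was met by 3900 of 35315 autosomal peaks (the whole list held 35539 entries), or 11.04% (95% Wilson interval 10.7 to 11.4). The genes counted were 47042 autosomal entries, of which 20665 were protein-coding and the rest long noncoding RNAs, pseudogenes and small RNA genes. Nothing about the height or the significance of a peak entered the rule.

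The study measured catalytically engaged TOP2B in cultured cortical neurons. Neurons were dissociated from wild-type (WT) Swiss-Webster embryos at day 16 and received etoposide (ETP) at 50 µM for 30 min before collection. The labels give 2 TOP2B ChIP libraries and 2 input libraries, all from treated neurons, with no untreated library among them, and do not say whether the numbered libraries came from separate cultures. The values were a single list of peaks that the authors had pooled, so no value has a standard deviation over libraries, and depth per library is unknown. Peak positions hold no expression values against which the labelled cell type could be checked. Coordinates are 1-based on GRCm38. Intervals cover counting error only.

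TOP2B is the type II topoisomerase of postmitotic neurons. It cuts both strands of a DNA duplex, passes another duplex through the gap and reseals it, which removes the supercoils and tangles left by transcription and by chromatin loops. Etoposide blocks the resealing step, so that the enzyme stays covalently attached to the cut ends and can be precipitated with them. Gene deserts are long stretches without annotated genes. Many lie beside genes for developmental regulators and cell adhesion proteins, and some are known to hold distant enhancers and the borders of chromatin domains.

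Called TOP2B peaks were less dense in desert sequence than in the rest of the autosomes. Lengths include any runs of unknown bases in the build, and how much of either sequence reads can be placed on was not examined. Sequence beyond 50 kb from every gene came to 359.2 Mb, or 15.01% of the 2393.8 Mb between the first and last summits of the autosomes. It held 10.9 summits per Mb (95% exact Poisson interval 10.5 to 11.2), which is 1 summit in every 92.1 kb. The rest of the autosomes held 15.4 per Mb (15.3 to 15.6), which is 1 in every 64.8 kb. The desert density was 0.703 times that of the rest (95% exact interval 0.680 to 0.727). Counting only peaks with a q-value (the false discovery rate given by the caller) of 0.05 or less, deserts held 2.54 per Mb (2.37 to 2.71), which is 1 in every 394.3 kb, and the rest 3.62 per Mb (3.54 to 3.71).

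The lower density was found on each autosome. The ratio of desert to remaining density was below 1 on 19 of 19 autosomes, with a mean of 0.722 ± 0.080 (SD, n = 19 autosomes), and the interval of the single ratio lay wholly below 1 on 16 of them. It was lowest on chromosome 11, where deserts held 11.5 summits per Mb against 19.4 elsewhere (ratio 0.594). It was highest on chromosome 13, with 11.7 against 13.5 (ratio 0.867, interval 0.743 to 1.01). Chromosomes 18 and 19 were the other autosomes whose interval reached 1, with ratios of 0.851 and 0.798. The lowest desert density, 8.92 per Mb, was found on chromosome 14 and the highest, 13.0, on chromosome 9. Chromosome 1 held the most desert summits, 377 in 35.6 Mb, and chromosome 19 the fewest, 81 in 6.43 Mb.

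**Figure D1:**
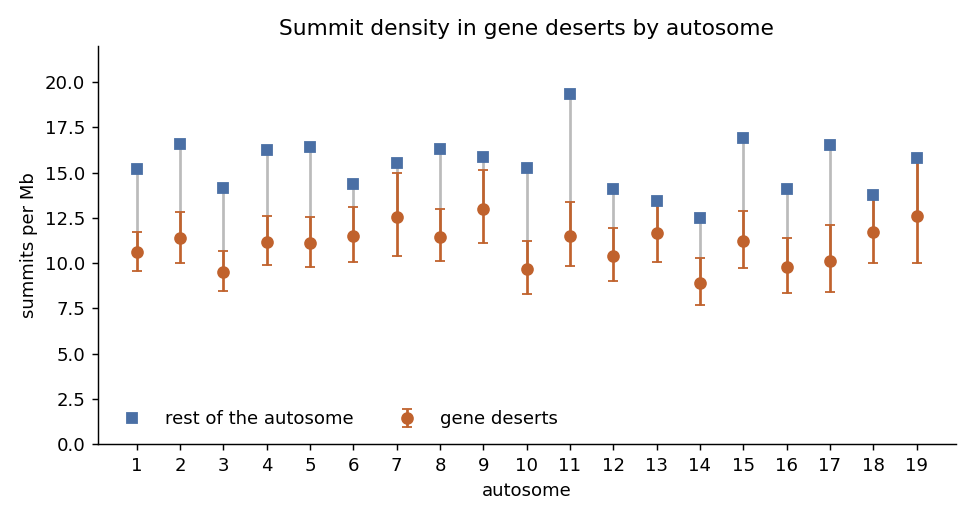
Summits per Mb (vertical axis) in gene deserts (circles, with 95% exact Poisson intervals) and in the rest of the same autosome (squares, without interval) for the 19 autosomes. The desert value lies below the other on every autosome, with the widest gap on chromosome 11.

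Density fell with distance from genes up to the limit of the deserts and changed less beyond it. Inside genes there were 17.1 summits per Mb (16.9 to 17.3). Within 10 kb outside a gene there were 14.1 (13.7 to 14.5), and from 10 to 50 kb there were 12.3 (11.99 to 12.6). Of the desert summits, 1998 lay 50 to 100 kb from a gene, at 11.2 per Mb (10.7 to 11.7). A further 1302 lay 100 to 200 kb away, at 10.6 per Mb (9.99 to 11.2), and 573 lay 200 to 500 kb away, at 10.4 per Mb (9.58 to 11.3). Values fell slightly over these 3 desert bands, and their intervals overlapped. Overlap of intervals cannot decide on a trend, and a trend within deserts was not tested. The last 27 summits lay more than 500 kb from any gene, at 11.6 per Mb (7.64 to 16.9). Of those 27, 12 were in a single desert on chromosome 15, described further on. Without it the farthest band held 15 summits in 2.02 Mb, or 7.44 per Mb.

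**Figure D2:**
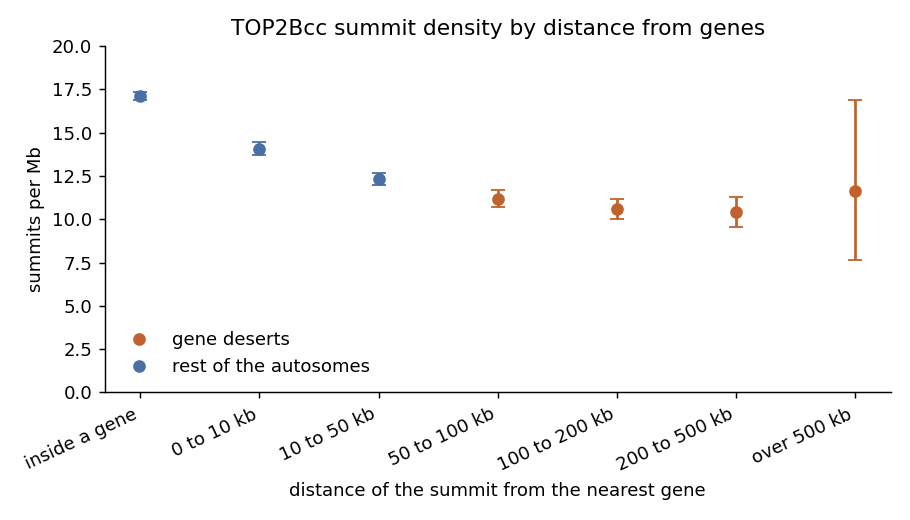
Summits per Mb (vertical axis) by distance from the nearest gene of any type (horizontal axis), with 95% exact Poisson intervals. Values fall from 17.1 inside genes to 11.2 at 50 to 100 kb, and the desert bands overlap one another.

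The difference was smaller against the borders of the same deserts. For the 2796 deserts with a gene on both sides, the desert held 10.9 summits per Mb, and the 50 kb on either side that separate it from those genes held 11.8. The ratio was 0.917 (95% exact interval 0.875 to 0.960). It mixes deserts of unlike length. Deserts of up to 50 kb gave 110.2 of the 279.6 Mb of borders. They gave only 23.9 of the 359.2 Mb of desert. Against all intergenic sequence within 50 kb of a gene the ratio was 0.827 (0.797 to 0.858). Within groups of deserts of like length the ratio to their borders ran from 0.886 (over 500 kb) to 1.08 (200 to 500 kb), and each of the 5 intervals included 1. A difference between deserts and their own borders was thus not detectable within a length group.

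Desert peaks had the same median height as other peaks. Fold enrichment is the caller's own value for each peak, the ChIP signal at the summit divided by the control. Its median was 2.77 in deserts (quartiles 2.43 and 2.94) and 2.77 elsewhere (quartiles 2.49 and 2.94). The reconstructed pileup, which is the number of ChIP fragments stacked at the summit, had a median of 15 in both classes, with quartiles of 14 and 17 in each. Both classes come from the same list of called peaks, with a lowest pileup of 11 in each. Sites too weak to be called are absent from both medians. The 95th percentile of fold was 3.46 in both and the 99th 3.81 in both. Folds of 4 or more occurred at 9 desert summits (0.231%, Wilson interval 0.122 to 0.438) and at 88 others (0.280%, 0.227 to 0.345). The difference was -0.049 percentage points (95% Newcombe interval -0.176 to 0.165).

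The authors' q-values had the same quartiles in both classes. At a given control level fold and q both follow from the pileup, so this likeness is not separate from those of fold and pileup. A q of 0.05 or less was found at 911 desert peaks (23.4%, interval 22.1 to 24.7) and at 7371 other peaks (23.5%, 23.0 to 23.9), against 23.5% of all autosomal peaks. The difference of -0.104 percentage points had an interval from -1.49 to 1.33. The share was lower in deserts on 9 of 19 autosomes. The q of the median peak was 0.110 in both classes, and most single peaks of the list did not reach a q of 0.05. Among peaks 50 to 100 kb from a gene 22.4% had such a q (20.6 to 24.3), and among those 200 to 500 kb away 25.5% (22.1 to 29.2).

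Control levels differed slightly. The control level is the background that the caller sets at the summit, and its lowest value in the list, 4.782, was also the most common. It was found at 2693 desert peaks (69.1%, interval 67.6 to 70.5) and at 22401 others (71.3%, 70.8 to 71.8), against 71.1% of all autosomal peaks. The difference was -2.26 percentage points (-3.81 to -0.738). The share was lower in deserts on 14 of 19 autosomes. Among these peaks the pileups ran from 11 to 27 in both classes, with a median of 15, and 27.3% of desert peaks (25.6 to 29.0) and 26.6% of others (26.0 to 27.2) had a q of 0.05 or less. Control levels of more than 2 times the most common one were found at 1 desert peak and at 98 others (0.026% and 0.312%).

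**Figure D3:**
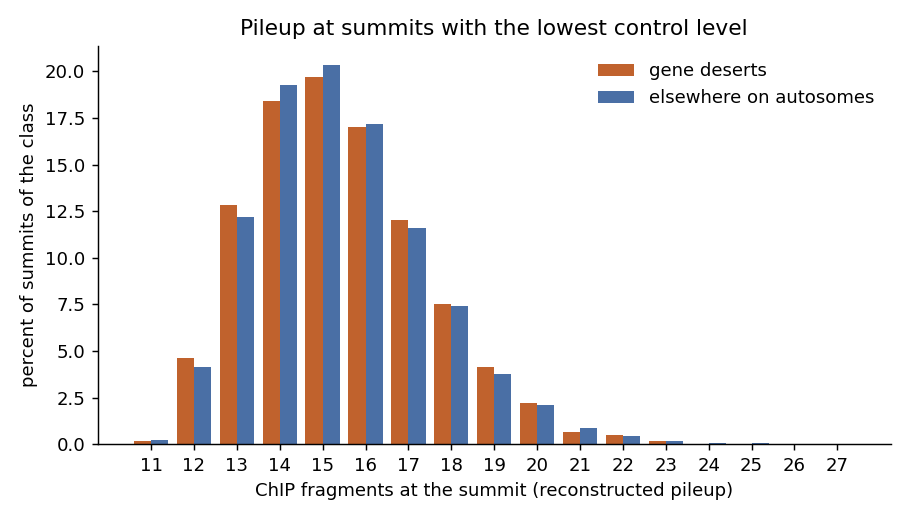
Percent of summits (vertical axis) by the number of ChIP fragments at the summit (horizontal axis), for summits at the lowest control level in gene deserts (2693) and elsewhere on the autosomes (22401). Both distributions peak at 15 fragments.

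Desert peaks were a little narrower. Their median width was 219 bp (order-statistic interval 217 to 221) against 223 bp (222 to 223), and the median was lower in deserts on 16 of 19 autosomes. The minimum width of 190 bp was found at 23.4% of desert peaks and 22.2% of others, a difference of 1.23 percentage points whose interval includes 0 (-0.156 to 2.66). Widths of 400 bp or more were found at 96 desert peaks (2.46%, 2.02 to 3.00) and 1028 others (3.27%, 3.08 to 3.48), a difference of -0.811 points (-1.30 to -0.243). The widest desert peak, on chromosome 16 from 52595923 to 52596644, spanned 722 bp with a fold of 2.94. It lay 143 kb from Alcam, a cell adhesion gene of the immunoglobulin family. The next widest were 676 bp on chromosome 13 (fold 2.47, between the noncoding Gm11351 and the pseudogene Gm11352), 606 bp on chromosome 17 (fold 2.94, between the pseudogenes Gm16391 and Gm18366) and 600 bp on chromosome 2 (fold 2.77, between Gm39833 and Gm26422). The last of the 5 widest, of 593 bp on chromosome 13 with a fold of 3.29, lay between the pseudogene Gm4936 and Mir3961, and its nearest protein-coding genes were Cetn3 at 638.2 kb on one side and Mef2c, a neuronal transcription factor gene, at 1068.7 kb on the other.

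Peaks on both sides of the distance limit had overlapping folds. From 50 to 51 kb lay 50 summits with a median fold of 2.59 (1.83 to 3.46), of which 9 had a q of 0.05 or less. From 49 to 50 kb, just short of the limit, lay 63 summits with a median fold of 2.77 (1.97 to 3.57), of which 13 had such a q.

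The strongest desert peak had a fold of 4.84, from 27 fragments over the lowest control level, with a q of 2.03e-07. It spanned chromosome 12 from 95841563 to 95841832 and its summit lay 56.5 kb beyond Flrt2, which encodes a leucine-rich repeat adhesion and guidance receptor of neurons. The next protein-coding gene on the other side was Galc, a lysosomal galactosidase gene, at 2360.6 kb. The desert beside Flrt2 held 4 summits in 161.4 kb, of which 2 had a q of 0.05 or less. The second peak, with a fold of 4.496 from 25 fragments and a q of 6.06e-06, lay on chromosome 11 from 45534665 to 45534925. It sat between the pseudogene Gm12161 and the small nucleolar RNA gene Gm22284. The nearest protein-coding genes on either side were Ebf1, a helix-loop-helix transcription factor gene, at 526.7 kb and Clint1 at 317.2 kb.

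A fold of 4.15, from 23 fragments each, was shared by 5 desert peaks. On chromosome 1 a peak lay at 7879048 to 7879291, between the pseudogene Gm17903 and the noncoding Gm39589, with Pcmtd1 and Sntg1 as the nearest protein-coding genes. Another lay at 56547489 to 56547712, 88.5 kb from Hsfy2 and 527.4 kb from the noncoding 1700003I22Rik, with Plcl1 as the protein-coding gene beyond it. On chromosome 17 a peak at 14607616 to 14607840 lay 57.8 kb from Thbs2, a thrombospondin gene, with the noncoding Gm34916 and, beyond it, Smoc2 on its other side. On chromosome 2 a peak at 81160224 to 81160534 lay 176.2 kb from the small nuclear RNA gene Gm23452 and 889.8 kb from Zfp804a, a zinc finger gene, with Nup35, a nuclear pore gene, at 500.3 kb on the other side. On chromosome 7 a peak at 77679680 to 77680051 lay between Agbl1 and the pseudogene Gm18674, 555.2 kb from the former and 500.1 kb from Ntrk3, which encodes the neurotrophin-3 receptor.

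Folds of 4.11 and 4.05 completed the group above 4. The first lay on chromosome 4 from 97128259 to 97128610, between the small nuclear RNA gene Gm27521 and the noncoding Gm40207, with Gm12695 at 341.6 kb and Nfia, a nuclear factor I gene of neural development, at 449.6 kb as the nearest protein-coding genes. The second lay on chromosome 14 from 9113984 to 9114314, between the pseudogene Gm18071 and the noncoding Gm41097, with Cfap20dc at 447.8 kb and Fhit, a gene at a known chromosomal fragile site, at 435.9 kb. Its 24 fragments stood over a control level of 5.17, and its q of 0.000122 was the third lowest of the deserts. After these, 13 desert peaks tied at a fold of 3.98. The 9 leading peaks lay on 8 chromosomes, and each of them had only 23 to 27 fragments at its summit.

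Deserts were many and mostly short. The 3900 summits were spread over 2799 deserts, counted as unbroken stretches beyond 50 kb from every gene, with a median length of 73.4 kb (quartiles 26.7 and 169.3). At least 1 summit was present in 1525 deserts (54.5% of all), 647 held exactly 1 and 26 held 10 or more. The number of summits followed length. Deserts of up to 50 kb held 12.1 summits per Mb (10.8 to 13.6), those of 50 to 100 kb 11.4 (10.4 to 12.5) and those of 100 to 200 kb 11.6 (10.9 to 12.3). Deserts of 200 to 500 kb held 10.3 (9.81 to 10.9), and the 110 deserts over 500 kb held 10.3 (9.59 to 11.1). At least 1 summit was found in 22.2% of the shortest of these groups and in 98.2% of the longest, 108 of 110.

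Summits inside deserts varied slightly more in number from place to place than counting error alone gives. In 2455 tiles of 100 kb lying wholly within deserts the mean was 1.06 summits and the variance 1.15, a ratio of 1.08, where a constant rate gives 1. No summit was found in 879 tiles (35.8%), 1 in 878 (35.8%), and 5 or more in 18 (0.733%), with a maximum of 7. Another summit lay within 5 kb of 451 desert summits (11.6%, interval 10.6 to 12.6) and of 5686 others (18.1%, 17.7 to 18.5), against 17.4% of all autosomal summits. The difference was -6.54 percentage points (-7.59 to -5.41). The classes differ in density, and an even scatter at the density of each would give 10.3% and 14.3%. The observed shares were 1.12 and 1.27 times those values. Within 1 kb, where 74 desert summits had a neighbour, the shares were 1.90% (1.51 to 2.38) and 3.23% (3.04 to 3.44). These were 0.883 and 1.06 times those of an even scatter. An even scatter gives 2.15%, inside the desert interval, and 3.04%, at the lower end of the other.

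Close groups held a smaller share of the summits in deserts than elsewhere. A lower density by itself gives fewer such groups, and the shares below were not set against an even scatter. Runs of 3 or more summits, each within 5 kb of the next, numbered 12 and held 37 desert summits (0.949%, interval 0.689 to 1.31), against 325 runs with 1028 summits elsewhere (3.27%, 3.08 to 3.48). Only 1 run in the deserts had 4 summits. It covered 5.36 kb on chromosome 5, from 14360047 to 14365564, between Sema3e, a semaphorin guidance gene, and Pclo, which encodes the presynaptic scaffold protein Piccolo. Its folds ran from 2.05 to 3.11 and 1 of the 4 had a q of 0.05 or less. Among the runs of 3, all named after their values were seen, were 1.17 kb between Cdh8 and Cdh11 on chromosome 8, 6.42 kb between Zeb2 and Acvr2a on chromosome 2, and 4.51 kb on chromosome 14, in the same desert near Fhit that held a leading peak.

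**Figure D4:**
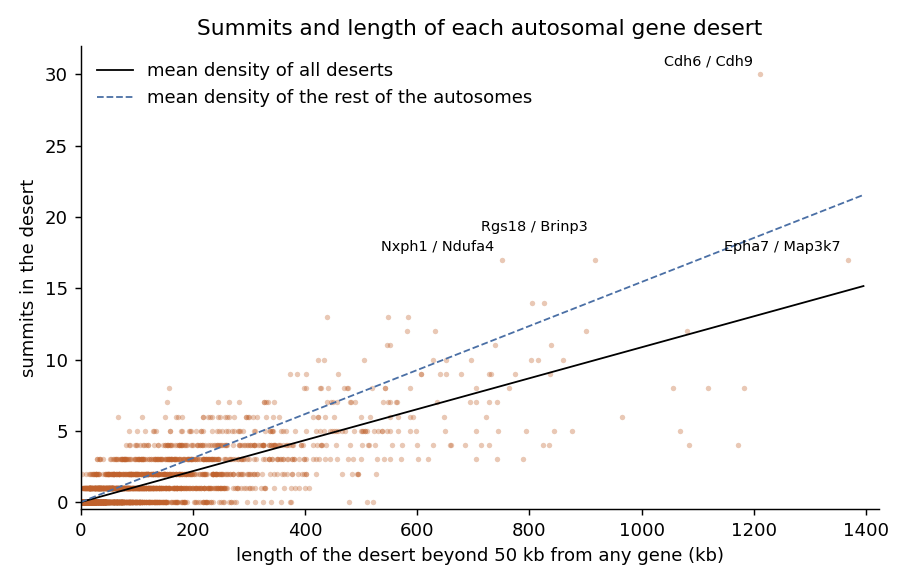
Each point is 1 of 2799 autosomal gene deserts, with its length beyond 50 kb from any gene (horizontal axis, kb) and the number of summits in it (vertical axis). The lines give the mean density of all deserts (10.9 per Mb) and of the rest of the autosomes (15.4 per Mb), and the desert between Cdh6 and Cdh9 stands highest, with 30 summits.

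The desert with most summits lay between Cdh6 and Cdh9, which encode type II cadherins, adhesion proteins that sort neurons into groups. It spanned 1211.4 kb of chromosome 15, from 14516670 to 15728113, between the pseudogene Gm9630 and the noncoding 4930557F08Rik, and held 30 summits, or 24.8 per Mb. Its folds ran from 1.76 to 3.53 with a median of 2.52. A q of 0.05 or less was found at 7 of the 30, against 23.4% of all desert peaks. Split into 5 equal stretches of 242.3 kb, it held 4, 5, 12, 6 and 3 summits in order from the Cdh6 side.

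The control level was also high where these summits were dense. The 12 summits of that desert more than 500 kb from any gene lay within 110.8 kb, from 15047568 to 15158361. Their control levels ran from 5.17 to 10.3 with a median of 7.35, and none stood at the lowest level, whereas the other 18 summits of the desert had a median control level of 4.85. Their pileups ran from 17 to 26 fragments, with a median of 19 against 15 over all deserts, and their median fold was 2.48. The highest pileup, 26 fragments at the summit at 15135751, gave a fold of 3.53 and a q of 0.000532. Over all deserts, the 213 peaks at control levels of 6 to 8 had a median of 16 fragments and the 12 over 8 a median of 18.5. These classes include 11 of the 12 summits in the 110.8 kb. The part of the control level in the number of summits called there was not tested. Without this desert, left out after the data were examined, the density ratio of deserts to the rest was 0.700.

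**Figure D5:**
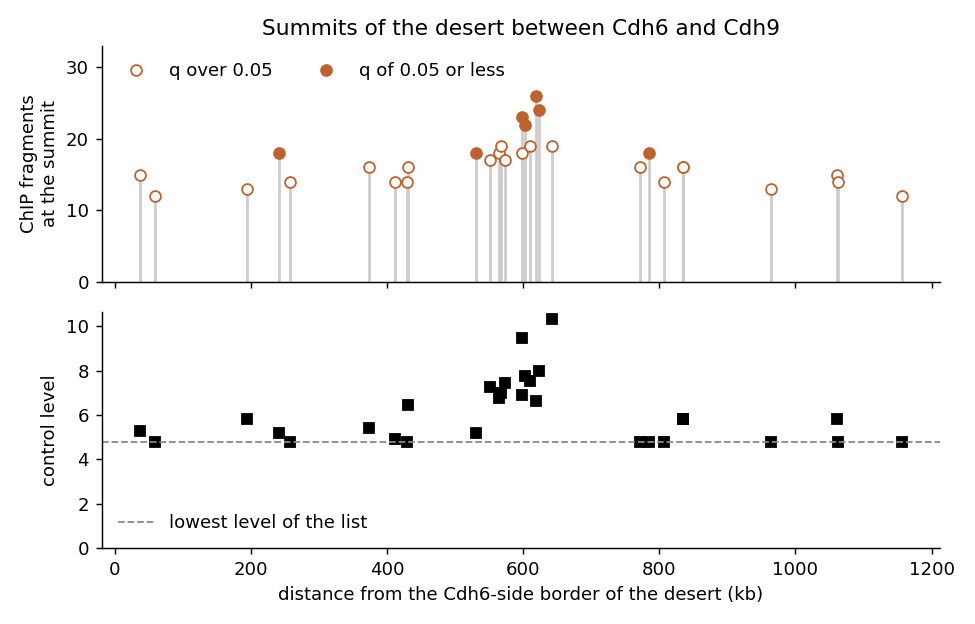
The 30 summits of the desert between Cdh6 and Cdh9 by distance from its Cdh6-side border (horizontal axis, kb), with ChIP fragments at the summit (upper panel, filled where q is 0.05 or less) and the control level (lower panel, dashed line at the lowest level of the list). The 12 summits near the middle have 17 to 26 fragments and control levels of 5.17 to 10.3.

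In the other 8 deserts with most summits, 57.1% to 84.6% of the summits stood at the lowest control level, and no control level exceeded 7.76. The share over all desert peaks was 69.1%, and some of the 8 lay below it and some above. Next to Nxph1, which encodes a secreted ligand of neurexins, a desert of 750.8 kb on chromosome 6 held 17 summits (22.6 per Mb, folds 2.20 to 3.63), and 10 of the 17 stood at the lowest control level. A neighbouring desert of 826.0 kb, between AA545190 and Ndufa4, a gene for a mitochondrial protein, held 14 (16.95 per Mb). Its folds ran up to 3.98, and 11 of 14 summits stood at the lowest level. The desert between Rgs18 and Brinp3 on chromosome 1 held 17 summits in 917.0 kb (18.5 per Mb), of which 1 had a q of 0.05 or less. Such a q was found at 23.4% of all desert peaks, and whether single deserts differ from that share was not tested. The longest desert of all, 1368.3 kb on chromosome 4 between Epha7, an ephrin receptor gene, and Map3k7, held 17 summits (12.4 per Mb), of which 8 had such a q. It contained the summit farthest from any gene, at 29947908, which lay 716.7 kb from the noncoding 4930556G01Rik with a fold of 3.46 and a q of 0.0102. The next farthest in that desert lay 693.5 and 653.1 kb from a gene, with folds of 2.94 and 3.29. The remaining pair among the 5 farthest, at 652.8 and 651.9 kb with folds of 2.63 and 2.35, lay in the desert between Cdh6 and Cdh9.

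The other deserts of this group ranged from 439.9 to 804.0 kb. Between Sorcs3 and Sorcs1, sortilin-related sorting receptor genes, 14 summits lay in 804.0 kb of chromosome 19. Between Cntn3, a contactin gene, and Chl1, a neural adhesion gene, 13 summits lay in 548.1 kb of chromosome 6 (23.7 per Mb). Of these 13, 6 had a q of 0.05 or less, against 23.4% of all desert peaks. Between Fbxo15 and Neto1, which encodes an auxiliary subunit of kainate receptors, 13 lay in 583.6 kb of chromosome 18. The highest density among deserts of 200 kb or more, 29.6 per Mb, was found between Snx16 and Ralyl on chromosome 3, with 13 summits in 439.9 kb and folds of 2.42 to 3.63. All deserts named for most summits, that between Cdh6 and Cdh9 included, were picked by their counts, which favours high densities. Whether those counts go beyond counting error was not tested. At 4 deserts that tied for the tenth place there were 12 summits each. Over the 568 deserts of 200 kb or more the median density was 9.69 per Mb (quartiles 5.56 and 13.8), and 43 were above 20 per Mb.

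Among the 5 longest deserts, 3 had densities below the 10.9 per Mb of all deserts. Whether their counts go beyond counting error was not tested. A desert of 1172.3 kb on chromosome 3, with the protocadherin gene Pcdh10 as the nearest protein-coding gene on one side, held 4 summits (3.41 per Mb). A desert of 1183.4 kb on chromosome 14 between Olfm4 and Pcdh17 held 8 (6.76 per Mb), as did 1119.1 kb on chromosome 5 between Lcorl and Slit2, an axon guidance gene (7.15 per Mb). No summit at all was found in 38 of the deserts of 200 kb or more. The longest of these covered 520.9 kb on chromosome 1, between Slco6d1 and Cntnap5b, and 511.3 kb on chromosome 9, next to Htr1b, a serotonin receptor gene. Also among the 5 longest were 478.4 kb on chromosome 9 between Plod2 and Dipk2a and 372.9 kb on chromosome 10 between Tafa2 and Slc16a7. Desert lengths include any runs of unknown bases in the build, which were not set apart here.

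Density differed little with the kind of gene that stood nearest. A pseudogene was nearest to 1495 desert summits (38.3%), a long noncoding RNA gene to 1184 (30.4%) and a protein-coding gene to 707 (18.1%). These kinds were nearest to 40.5%, 29.3% and 16.9% of desert length. Density was 11.7 per Mb (10.8 to 12.5) where a protein-coding gene was nearest, 11.3 (10.6 to 11.9) for long noncoding RNA genes and 10.3 (9.76 to 10.8) for pseudogenes, so that the highest and the lowest of these intervals barely met. Small nucleolar RNA genes were nearest to 233 summits (10.8 per Mb), small nuclear RNA genes to 192 (10.4 per Mb) and microRNA genes to 29 (9.60 per Mb), and genes of other types to the rest. The length of the nearest protein-coding gene did not order the densities either, which were 10.8 per Mb beside genes of up to 20 kb and 10.8 beside genes over 500 kb. By distance from protein-coding genes alone, the density was 11.9 per Mb (10.97 to 12.9) at 50 to 100 kb, 11.2 (10.4 to 11.99) at 100 to 200 kb and 11.2 (10.6 to 11.8) at 200 to 500 kb. It was 10.2 (9.49 to 10.9) at 500 to 1000 kb and 9.31 (8.41 to 10.3) beyond 1 Mb, where 389 desert summits lay. The intervals of the nearest and the farthest of these bands did not overlap, and those of neighbouring bands did.

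Genes of 6 lists were looked up at the borders of deserts, first as the nearest gene of any type. Of 20665 autosomal protein-coding genes, 1068 (5.17%) bordered a desert in this way, and 52.0% of those had at least 1 summit in it. Of 39 synaptic leucine-rich repeat and adhesion genes, 38 matched an autosomal gene, 19 of these bordered a desert directly, and 16 of the 19 had at least 1 summit there. Their deserts held 73 summits in 5.38 Mb, or 13.6 per Mb (10.6 to 17.1), against 10.9 over all deserts. Of the 25 deserts, 21 (84.0%) held a summit against 54.5% of all deserts, but their median length was 160.0 kb against 73.4 kb. After Nxph1, the leading members were Lrrtm4, a postsynaptic leucine-rich repeat gene, with 9 summits (14.5 per Mb), and Cadm2, a synaptic cell adhesion gene, with 8 (14.1 per Mb). No summit was found in the deserts that border Epha5, Epha7 and Nrxn3 directly.

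Among 21 cadherin and protocadherin genes, 15 bordered a desert directly. Their deserts held 38 summits in 3.10 Mb, or 12.3 per Mb (8.69 to 16.9). Pcdh9 had 8 summits in 764.6 kb, Cdh2, the N-cadherin gene, 6 in 170.3 kb, and Cdh18 and Pcdh7 5 each. Developmental transcription factor genes bordered a desert directly at 12 of 58 matched members, with 21 summits and 11.1 per Mb (6.90 to 17.03). They were led by Irx5, Isl1 and Zfhx3 with 4 summits each. Cortical neuron transcription factor genes did so at 6 of 25, with 4 summits, among them 2 beside Satb1 and 1 beside Ldb2. Of 19 matched genes of other tissues, only Ins1, an insulin gene, bordered a desert, with 3 summits, and none of 22 immediate early genes did. Both counts are close to what the share of all protein-coding genes gives for so few genes. The intervals of the 5 lists with a desert each included the mean of all deserts.

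Other genes usually stood between a desert and its nearest protein-coding gene. Deserts were therefore also assigned to the nearest protein-coding gene on either side, which was decided after seeing the data. Counted so, the synaptic adhesion genes had 494 desert summits at 10.9 per Mb (9.96 to 11.9). The developmental transcription factor genes had 217 at 12.01 (10.5 to 13.7), among them Zeb2 with 21 and Isl1 with 17. Cortical neuron transcription factor genes had 39 at 11.7 (8.34 to 16.03), of which 15 were beside Mef2c. Cadherin and protocadherin genes had 324 at 9.20 (8.22 to 10.3), below the mean of all deserts although they included the desert between Cdh6 and Cdh9. Immediate early genes had 26 at 10.1 (6.57 to 14.7), with 10 beside Nr4a2, an orphan nuclear receptor gene, and 9 beside Klf6, a zinc finger factor gene. Genes of other tissues had 20, all beside Ins1, at 13.1 (8.01 to 20.3). The share of summits with a q of 0.05 or less was 26.7% beside synaptic adhesion genes, 25.4% beside developmental and 23.1% beside cortical neuron transcription factor genes, and 22.8% beside cadherins, against 23.4% in all deserts. It was 15.4% (4 of 26) beside immediate early genes and 15% (3 of 20) beside genes of other tissues. In the deserts that list genes bordered directly it was 27.4% for synaptic adhesion genes, 19.1% for developmental transcription factor genes and 13.2% (5 of 38) for cadherins.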

How the data were processed

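The submitters' processing notes name BWA, MACS2, FastQC, Trimmomatic and SAMtools, with builds mm10 and GRCm38.p6. Not given in the sources used here are versions, caller settings, duplicate handling and the libraries that entered the pool. The list was deposited by the authors in narrowPeak layout without a header, and column order identified its values. They are the fold enrichment, a linear ratio over control, the −log10 p and q as deposited, interval and summit positions in bp, and a deposited display score that was not used. Whole-number pileups and control levels were solved for from fold and p together (Poisson tail, 1 added to both terms of the fold, tolerance 0.002 in −log10 p), which succeeded for all 3900 desert peaks.

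Distances were taken to gene spans of a RefSeq table of GRCm38.p6. Desert length was measured from that table between the first and last summits of each autosome, and length by nearest gene on a grid of 1 kb. Shares have Wilson intervals, differences of shares Newcombe intervals, and densities and their ratios exact intervals, all at 95%. No test across peaks was made, since a pooled list has no replicates. Calculations used Python 3.11.15 with scipy 1.17.1 and were tested on simulated data. A planned description of the sequence under the summits needs a genome of the files' build, and sequence was not analysed here.

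The members and gene lists were chosen with earlier results of these data known. Genes named are the nearest on either side of the 10 desert summits of highest fold, the 5 of lowest q, the 5 widest, the 5 farthest from genes, the 10 deserts with most summits, the 5 longest, the 5 longest without a summit, and leading members of each list. The nearest protein-coding genes are given as well, where other genes intervene, and ties at the last place as a count. A few items that this rule names are not reported here.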

Additional observations from a re-analysis of the deposited data

Results flagged for a closer look

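The autosomal rule leaves out chromosome X, where the same distance limit gave 40 summits in 34.1 Mb of desert sequence. That is 1.17 per Mb (95% exact Poisson interval 0.837 to 1.60), against 10.9 per Mb in autosomal deserts. The count is given here because these entries are outside every comparison made above. The rest of chromosome X held 1.15 per Mb, so the low density was not particular to its deserts. Within chromosome X the density in deserts was 1.018 times that of the rest of the chromosome (95% exact interval 0.699 to 1.45), where each autosome had a ratio between 0.594 and 0.867. A difference between X and the autosomes in this ratio was not tested.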

How the results depend on the processing

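The density ratio of deserts to the rest stayed below 1 under all 11 other settings, from 0.687 (only folds at or above the median) to 0.827 (against intergenic sequence within 50 kb of a gene, chosen after the data were seen). The share of autosomal summits in deserts moved with the rule itself, to 17.8% with a limit of 25 kb, 5.39% with 100 kb and 27.4% when protein-coding genes alone bounded a desert. With only peaks of q 0.05 or less the median fold was 3.29, the share with a neighbour within 5 kb 3.84% and the share at the lowest control level 80.6%. With only folds at or above the median these were 2.94, 5.92% and 85.6%, and 45.2% had a q of 0.05 or less. Such lists hold fewer and higher peaks by construction. The other 49 values under these settings lay within the 95% interval of the value reported, among them all those with merged summits, whole intervals, high control levels left out, chromosome ends left out and the desert between Cdh6 and Cdh9 left out (the last added after seeing the data). The densities beside 5 gene lists also stayed within their intervals when the nearest protein-coding gene was used, likewise added later. Some of those intervals were too wide to show a change, such as 3.67 to 34.5 for cortical neuron transcription factor genes. Beside cadherin and protocadherin genes the density went from 12.3 per Mb, above the 10.9 of all deserts, to 9.20 (8.22 to 10.3), below it. No paired analysis was possible because the deposited list pools the libraries. Depth per library is unknown, and runs of unknown bases in the build were counted as sequence.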
